A study of Mus musculus with 8 samples.

Results

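The Ms4a gene cluster is a run of genes on mouse chromosome 19 that encode small proteins crossing the cell membrane several times, and 7 of its genes, Ms4a7, Ms4a4a, Ms4a4c, Ms4a4b, Ms4a6c, Ms4a6b and Ms4a6d, were examined here. They were chosen by name, with earlier results of these data known. They are the rows of the deposited gene table whose gene name equals one of these symbols, 7 of the 43346 genes in the table. All 7 had enough counts to be tested. Each library was made from the cortex and hippocampus of a single mouse at 1.5 months of age, with 4 animals of genotype GFP and 4 of genotype GFP-GR100, and each group held 2 females and 2 males. In the GFP-GR100 construct, 100 repeats of the dipeptide glycine-arginine were joined in frame to enhanced green fluorescent protein (EGFP) in an adeno-associated virus vector plasmid, and the GFP group carries the fluorescent protein without the repeats. Such glycine-arginine chains are translated from the expanded C9orf72 repeat of frontotemporal dementia and amyotrophic lateral sclerosis. The sources used here do not give the strain, the promoter, the route of delivery or the cells that hold the construct.

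MS4A proteins sit in the plasma membrane and in endosomes, often beside receptors whose signalling they adjust. The best known relatives are Ms4a1, which is the B cell antigen CD20, and Ms4a2, the beta chain of the high-affinity IgE receptor. In the brain the cluster is of interest because MS4A4A and MS4A6A are expressed in microglia and other macrophages, and common variants at the human locus are associated with the amount of soluble TREM2 in cerebrospinal fluid and with the risk of Alzheimer disease.

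The 7 genes lie on mm10 chromosome 19 between 11321039 and 11604849, a span of 283.81 kb, and all are annotated as protein coding. Ms4a7 (11321039 to 11336146) and Ms4a6d (11586604 to 11604849) are at the ends and on the minus strand. On the plus strand between them are, in order, Ms4a4a (11375523 to 11392790), Ms4a4c (11404770 to 11427246), Ms4a4b (11443553 to 11463549), Ms4a6c (11469366 to 11482192) and Ms4a6b (11516512 to 11531256). Within the cluster, 2 pairs of members had long alike stretches upstream of their starts. The 250 bases before the RefSeq start (build GRCm38.p6, 5′ to 3′ on the gene's strand) are shown for the pair with the largest group differences, Ms4a4c and Ms4a4b, and for the pair with the most alike flanks, Ms4a6c and Ms4a6b. Capitals mark the longest run of bases that the members of a pair share. The windows are chr19:11407411-11407660 for Ms4a4c, chr19:11443308-11443557 for Ms4a4b, chr19:11469118-11469367 for Ms4a6c and chr19:11518309-11518558 for Ms4a6b, all on the plus strand.
Ms4a4c: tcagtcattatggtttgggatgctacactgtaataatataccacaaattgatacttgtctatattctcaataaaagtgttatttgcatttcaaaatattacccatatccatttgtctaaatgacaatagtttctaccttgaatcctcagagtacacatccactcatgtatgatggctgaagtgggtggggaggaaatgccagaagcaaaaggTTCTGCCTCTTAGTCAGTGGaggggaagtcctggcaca
Ms4a4b: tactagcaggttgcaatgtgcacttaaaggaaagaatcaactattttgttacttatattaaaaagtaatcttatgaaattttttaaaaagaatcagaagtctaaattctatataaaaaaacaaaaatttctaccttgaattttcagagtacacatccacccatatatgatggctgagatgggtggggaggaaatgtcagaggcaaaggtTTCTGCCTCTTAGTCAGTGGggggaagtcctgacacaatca
Ms4a6c: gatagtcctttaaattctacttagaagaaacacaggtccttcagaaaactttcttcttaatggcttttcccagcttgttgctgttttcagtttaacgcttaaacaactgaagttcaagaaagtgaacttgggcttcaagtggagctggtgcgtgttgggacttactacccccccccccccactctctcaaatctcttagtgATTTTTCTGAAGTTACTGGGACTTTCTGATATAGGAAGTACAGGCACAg
Ms4a6b: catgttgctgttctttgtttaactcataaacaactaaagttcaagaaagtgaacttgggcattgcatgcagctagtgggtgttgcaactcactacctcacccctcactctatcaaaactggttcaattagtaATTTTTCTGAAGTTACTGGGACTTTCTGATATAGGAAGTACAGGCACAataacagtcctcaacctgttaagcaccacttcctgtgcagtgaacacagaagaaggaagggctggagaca
In a local alignment the Ms4a4c and Ms4a4b windows were identical in 184 of 251 columns (73.3%), with a shared run of 20 bases that begins at position -38 in Ms4a4c and -41 in Ms4a4b, where -1 is the last base before the start. The Ms4a6c and Ms4a6b windows were identical in 152 of 182 columns (83.5%), with a shared run of 48 bases. RefSeq promoter entries matched by symbol for 6 of the 7 genes, with 2 for Ms4a7, and not for Ms4a6d. The RefSeq starts of Ms4a4c and Ms4a6b lie inside the deposited gene, downstream of its listed start. Inside its gene, too, is the Ms4a7 entry with the window 11334696 to 11334945. The RefSeq starts of Ms4a4b and Ms4a6c lie within a few bases of the listed start.

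Both strands of the 7 member windows were searched for 3 motifs that may overlap one another. The core of the interferon-stimulated response element, searched as a pair of GAAA words with any 2 bases between them, was in 0 of the 7, against 2.98% of 32851 promoter windows of the same length and 37.5% of the 24 windows of listed interferon-stimulated genes. The gamma-activated site, TTCNNNGAA, was in 0 of the 7 and in 7.02% of all windows. A site of PU.1, the lineage factor of macrophages and microglia, searched only as the exact word GAGGAAGT, was in 0 of the 7. It was in 2.44% of all windows and in 4.35% of the 23 windows of listed homeostatic microglia markers. These letters are absent from these windows only, and neither other forms of these sites nor sequence further away was searched.

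Total counts ran from 65880460 to 89113010 per library, and values are given as CPM, counts scaled to a common library total with TMM, where 3 counts are worth 0.0328 to 0.0495 CPM. Markers of cortical and hippocampal neurons were abundant in all libraries, with summed levels of 5527 to 6136 CPM in GFP and 4697 to 5643 CPM in GFP-GR100, which is what the labelled tissue should contain. Of the 20987 genes tested, 460 (2.19%) were called higher in GFP-GR100 and 68 (0.324%) lower at an adjusted p under 0.05, 2.52% in either direction. The tissue weighed 111.4 to 126.6 mg in GFP animals and 71.9 to 85.1 mg in GFP-GR100 animals. The share of counts at the ribosomal RNA locus Yam1 was 1.58% to 6.94% and was high in GFP 1, GFP-GR100 3 and GFP-GR100 4. Since the libraries are from separate animals, p-values set the group difference against the spread between these animals and their libraries.

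Of the 7 genes, 1 was called higher in GFP-GR100, Ms4a4c, against 2.19% of all tested genes. None was called lower, against 0.324%, and 6 did not pass the test. The fitted log2 fold change, GFP-GR100 over GFP, was above 0 for 6 of the 7, against 45.4% of all tested genes, and its median was 0.81, against -0.02 over all tested genes. The same 6 genes had an unadjusted p under 0.05 in edgeR's quasi-likelihood test, as did 3274 of the 20987 genes. All GFP-GR100 libraries lay above all GFP libraries for 2 of the 7, Ms4a4c and Ms4a6b, against 5.03% of all tested genes. Because the 7 genes were chosen with earlier results of these data known, these shares are a background and not a test. The exception to the common direction was Ms4a4a, with a fitted log2 fold change of -0.23. In pieces of whole tissue, more cells of a type and more RNA per cell cannot be told apart. The 7 genes are a small part of the RNA in every library: in the order of their numbers, the GFP libraries had summed levels of 4.95, 3.74, 7.36 and 3.88 CPM, and the GFP-GR100 libraries 7.19, 7.01, 11.2 and 10.4 CPM. GFP 3 was the highest GFP library and lay just above the lower pair of GFP-GR100 libraries.

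**Figure D1:**
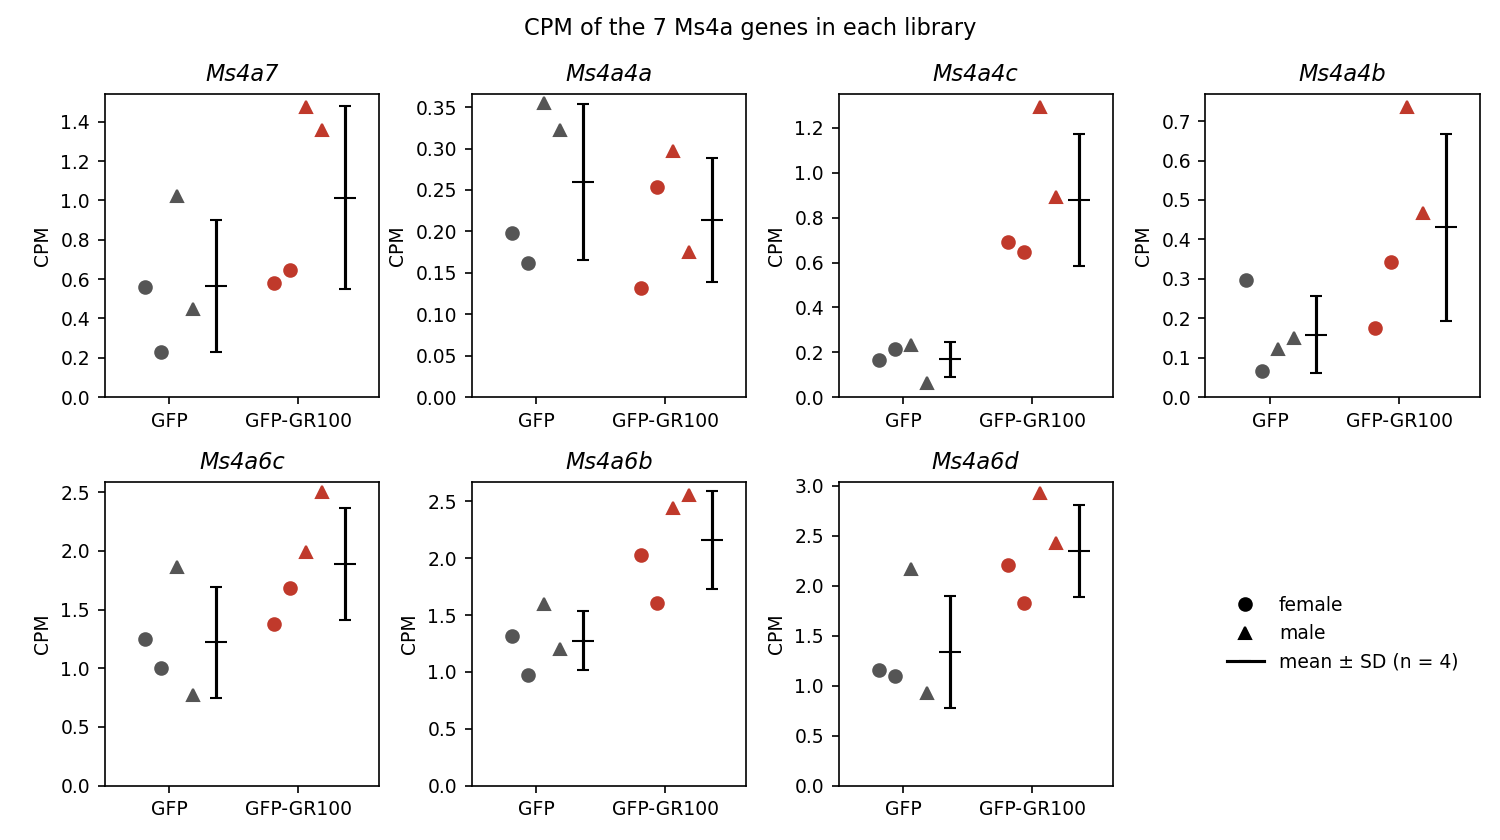
CPM of each of the 7 genes (vertical axes, each from 0) in the GFP and GFP-GR100 libraries, where circles are females, triangles are males and bars show mean ± SD (n = 4). The groups are separate for Ms4a4c and Ms4a6b and overlap for the other 5 genes, and GFP 3 is the highest GFP library for all but Ms4a4b.

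Ms4a4c rose 5.21-fold in the mean. Libraries 1 to 4 of the GFP group had 10, 16, 21 and 5 counts, and those of the GFP-GR100 group had 63, 51, 100 and 61. In CPM these are 0.165, 0.216, 0.233 and 0.0620 against 0.690, 0.647, 1.29 and 0.891. The lowest GFP-GR100 library had more than any GFP library, the male GFP 4 was lowest of all, and the male GFP-GR100 3 was highest. The mean went from 0.169 ± 0.0770 to 0.880 ± 0.294 CPM (SD, n = 4 each), with a log2 fold change of 2.34 (SE 0.40) and an adjusted p of 0.00586 from edgeR, rank 223 among the genes tested. The adjusted p was between 5.92e-10 and 0.0317 in each of the 17 alternatives that tested the gene, and the log2 fold change was 1.65 to 2.56 in them except on log2(RPKM + 1), where the added 1 exceeds the level itself and the value was 0.46.

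Ms4a4b, the neighbour of Ms4a4c, is known from T cells, where its protein restrains proliferation. It had counts of 18, 5, 11 and 12 in GFP and 16, 27, 57 and 32 in GFP-GR100, which are 0.297, 0.0675, 0.122 and 0.149 CPM against 0.175, 0.342, 0.736 and 0.468 CPM. The groups overlapped through a pair of females, since GFP 1 lay above GFP-GR100 1. Means were 0.159 ± 0.0980 and 0.430 ± 0.237 CPM, and the log2 fold change of 1.38 (SE 0.51) did not pass (adjusted p = 0.223, edgeR). Without GFP 1 it was 2.07 with an adjusted p of 0.0305. Over the 17 alternatives for this gene the adjusted p reached 0.537, and it was under 0.05 in 2. At 5 to 57 counts a library, these values carry large counting error.

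Ms4a6b was the nearest to the threshold among the genes that did not pass. Its counts were 80, 72, 144 and 97 in GFP and 185, 127, 189 and 175 in GFP-GR100, or 1.32, 0.973, 1.60 and 1.20 CPM against 2.03, 1.61, 2.44 and 2.56 CPM. The groups did not overlap, although the female GFP-GR100 2 lay only just above the male GFP 3. Means were 1.27 ± 0.260 and 2.16 ± 0.431 CPM, 1.70-fold apart, with a log2 fold change of 0.75 (SE 0.18) and an adjusted p of 0.0539 (edgeR). Over the 18 alternatives the adjusted p ran from 0.00653 to 0.149, and it was under 0.05 in 9, among them those without GFP 1 (0.0498) and without GFP 3 (0.0487).

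Ms4a6d encodes a macrophage membrane protein and was the most abundant of the 7 per length. It had counts of 70, 81, 195 and 75 in GFP and 202, 144, 227 and 166 in GFP-GR100, or 1.15, 1.09, 2.16 and 0.931 CPM against 2.21, 1.83, 2.93 and 2.43 CPM. GFP 3 stood above the other 3 GFP libraries and above GFP-GR100 2, and it alone made the groups overlap. The means of 1.34 ± 0.560 and 2.35 ± 0.461 CPM differed by a log2 fold change of 0.82 (SE 0.23), which did not pass (adjusted p = 0.107, edgeR). Without GFP 3 the log2 fold change was 1.14 and the adjusted p 0.0118. Over the 18 alternatives for this gene the adjusted p ran from 0.00169 to 0.278, and it was under 0.05 in 5.

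Ms4a6c, which is expressed in myeloid cells, had counts of 76, 74, 168 and 62 in GFP and 126, 133, 154 and 171 in GFP-GR100. In CPM these are 1.25, 1.00, 1.86 and 0.769 against 1.38, 1.69, 1.99 and 2.50, with GFP 3 above both GFP-GR100 females. The log2 fold change of 0.61 (SE 0.25) did not pass (adjusted p = 0.278, edgeR). The counts of this gene are uncertain in another way. The transcript BE692007 on the opposite strand overlaps 12027 bases of Ms4a6c, and 51.4% of the 50-base windows of Ms4a6c transcripts also occur in transcripts of other genes, 993 of these 1028 windows in BE692007. Without knowing whether strand was used in counting, reads of Ms4a6c and BE692007 cannot be told apart. Shared 50-base windows made up 8.19% for Ms4a4c, mostly with Ms4a4b, 3.57% for Ms4a6b and at most 2.54% for the other 4 genes.

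Ms4a7 is a marker of macrophages at the borders of the brain and is low in resting microglia. It had counts of 34, 17, 92 and 36 in GFP and 53, 51, 114 and 93 in GFP-GR100, or 0.561, 0.230, 1.02 and 0.447 CPM against 0.580, 0.647, 1.47 and 1.36 CPM. The males GFP-GR100 3 and 4 were highest, whereas both GFP-GR100 females lay among the GFP libraries. Means were 0.565 ± 0.334 and 1.01 ± 0.466 CPM, with a log2 fold change of 0.81 (SE 0.32) that did not pass (adjusted p = 0.250, edgeR).

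Ms4a4a, whose human counterpart is a macrophage protein that associates with the beta-glucan receptor Dectin-1, was the only one of the 7 with a lower mean in GFP-GR100. Its counts were 12, 12, 32 and 26 in GFP and 12, 20, 23 and 12 in GFP-GR100, or 0.198, 0.162, 0.355 and 0.323 CPM against 0.131, 0.254, 0.297 and 0.175 CPM. The groups lay across each other, with means of 0.259 ± 0.0939 and 0.214 ± 0.0748 CPM. The log2 fold change of -0.23 (SE 0.38, adjusted p = 0.790, edgeR) has a wide error. A change of moderate size in either direction could have been missed, and the rate of such misses at this level was not measured.

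On the scale of RPKM, which divides by gene length and allows levels of different genes to be compared, the order in GFP was Ms4a6d (0.756 ± 0.338), Ms4a6c (0.583 ± 0.237), Ms4a4a (0.305 ± 0.119), Ms4a6b (0.278 ± 0.0611), Ms4a7 (0.125 ± 0.0767), Ms4a4c (0.0944 ± 0.0442) and Ms4a4b (0.0290 ± 0.0166). Neighbours in this order lay within 1 SD of each other except Ms4a6c and Ms4a4a, Ms4a6b and Ms4a7, and Ms4a4c and Ms4a4b. In GFP-GR100 the means were 1.38 ± 0.247 for Ms4a6d, 0.941 ± 0.230 for Ms4a6c, 0.512 ± 0.162 for Ms4a4c, 0.491 ± 0.0914 for Ms4a6b, 0.262 ± 0.0897 for Ms4a4a, 0.232 ± 0.103 for Ms4a7 and 0.0830 ± 0.0443 for Ms4a4b. Here the neighbours within 1 SD of each other were Ms4a4c and Ms4a6b, and Ms4a4a and Ms4a7. Ms4a4c thus stood beside Ms4a7, near the bottom of the order, in GFP, and beside Ms4a6b in GFP-GR100. The lengths are those the authors listed, from 836 bases for Ms4a4a to 5274 for Ms4a4b.

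Within the sexes, 2 genes were called higher in males and 0 in females, where 5.56% and 0.829% of all tested genes were called higher. Ms4a4c had a log2 fold change of 2.85 (adjusted p = 0.00791, edgeR) in males and 1.79 (adjusted p = 0.205) in females. For Ms4a4b the values were 2.15 (adjusted p = 0.0491) in males and 0.53 (adjusted p = 0.827) in females. The difference between the sexes itself was called for 0 of the 7 genes, against 0.0524% of all tested genes, and its adjusted p ran from 0.397 for Ms4a4b to 0.964 for Ms4a6d. With 2 animals per sex and group, the effect is not shown to differ between females and males. The Yam1 share was 6.94% and 3.97% in GFP females and 1.87% and 1.58% in GFP-GR100 females. In males it was 2.31% and 2.11% in GFP and 5.20% and 5.82% in GFP-GR100. The share was thus higher in GFP among females and in GFP-GR100 among males. Effects within a sex and their difference cannot be told apart from it.

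Most other genes of the family had few or no counts in this tissue. Of 14 other family genes in the table, 4 had enough counts to be tested and 0 were called. Tmem176b and Tmem176a, ion channel-like relatives on chromosome 6 that are expressed in dendritic cells and other myeloid cells, went from 28.6 ± 8.40 to 34.0 ± 1.75 CPM and from 11.4 ± 2.78 to 13.4 ± 1.72 CPM (adjusted p = 0.404 and 0.50, edgeR). Without GFP 3, which stood at 41.1 CPM, Tmem176b was called higher with a log2 fold change of 0.49 (adjusted p = 0.00708). Without any other single library its adjusted p was 0.433 to 0.709. Ms4a1 (CD20) was near the floor, at 0.110 ± 0.0755 and 0.218 ± 0.113 CPM (adjusted p = 0.267). Ms4a15 ranged over the libraries without regard to group, from 0.0372 CPM in GFP 4 to 3.04 CPM in GFP 2, with 1.86 CPM in GFP-GR100 3 (adjusted p = 0.711). Among the 10 untested genes, Ms4a14 had 85 counts over the 8 libraries and Ms4a4d 54, Ms4a2 had 7, and Ms4a13 and Ms4a18 had 0.

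Around the cluster, no gene other than Ms4a4c was called. The table holds 59 further genes between 500 kb before the first and 500 kb after the last of the 7, of which 20 were tested, with a median log2 fold change of -0.03. Inside the cluster the tested ones were BE692007, at 0.71 (SE 0.24, adjusted p = 0.180, edgeR), and Gm8369, at -0.28 (SE 0.44, adjusted p = 0.779). Among the genes outside, AW112010, an interferon-responsive transcript of immune cells, had a log2 fold change of 0.74 (SE 0.35, adjusted p = 0.339).

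**Figure D2:**
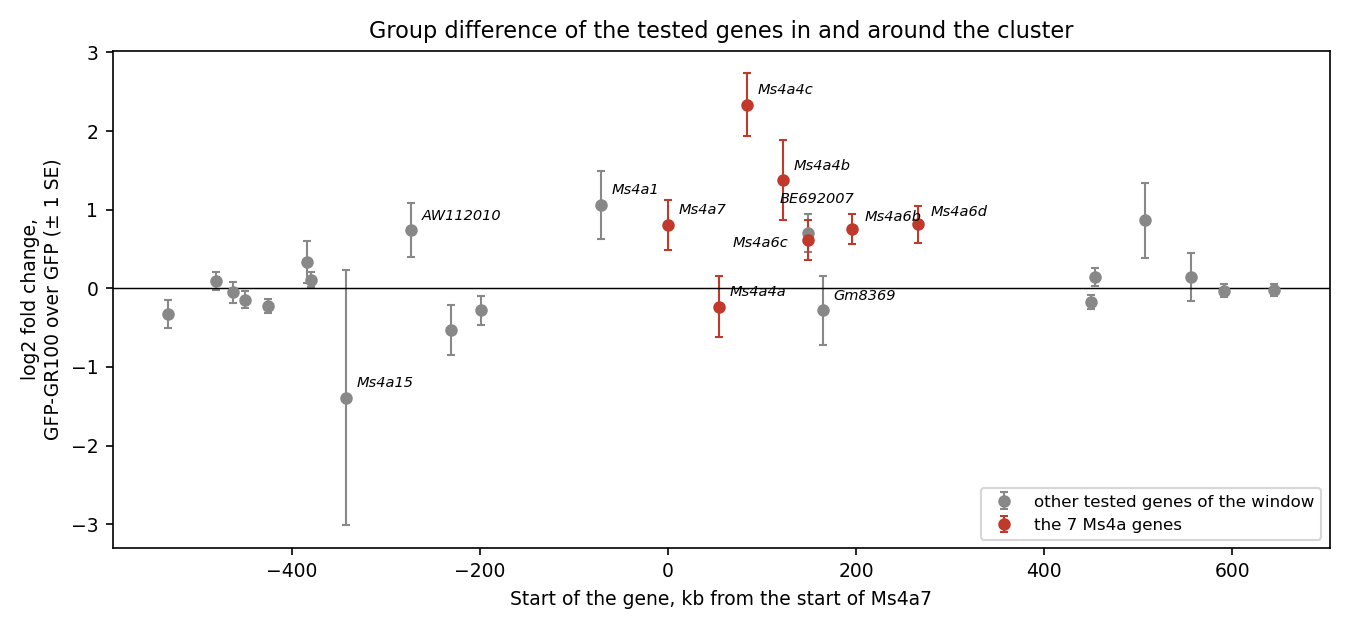
Fitted log2 fold change, GFP-GR100 over GFP, with bars of 1 SE (vertical axis) against the start of the gene in kb from the start of Ms4a7 (horizontal axis), for the 7 genes in red and the 20 other tested genes of the window in grey. Ms4a4c stands highest at 2.34, and the other genes of the window have a median of -0.03.

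Gene lists of microglia, other immune cells and the interferon response, chosen with earlier results of these data known, were set beside the Ms4a genes. Of 25 markers of homeostatic microglia, 16 were called higher and 0 lower, with a median log2 fold change of 0.58. Their summed level was 726.5 to 762.4 CPM in 3 GFP libraries, 1038.1 CPM in GFP 3 and 1246 to 1409 CPM in GFP-GR100. Cx3cr1, the fractalkine receptor, rose from 47.2 ± 4.91 to 73.4 ± 3.25 CPM, C1qa, a chain of complement C1q, from 47.8 ± 16.9 to 103 ± 8.99 CPM, and Laptm5, a lysosomal protein of blood-lineage cells, from 31.9 ± 4.46 to 60.7 ± 3.70 CPM. P2ry12, a purine receptor of resting microglia, did not pass, at 29.8 ± 3.06 and 34.6 ± 3.56 CPM (adjusted p = 0.330, edgeR). GFP 3 was the highest GFP library for the sum of these markers and for 6 of the 7 Ms4a genes. It was also the highest GFP library for the summed markers of T and natural killer cells (38.6 CPM), B cells (37.7 CPM) and mast cells (3.29 CPM), for the interferon-stimulated genes (247.7 CPM) and for the other family genes (58.6 CPM). By summed level it was not the highest for border macrophages (43.9 CPM), Trem2 and Dectin-1 signalling (173.9 CPM) or neurons (5950 CPM). For monocytes and neutrophils it was the lowest GFP library (41.8 CPM).

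Genes of Trem2 and Dectin-1 signalling were mostly higher. Of 14 tested rows for 13 genes of Trem2 and Dectin-1 signalling, 9 were called higher and 0 lower, with a median log2 fold change of 0.75. Trem2, the lipid receptor, rose from 14.5 ± 2.69 to 38.7 ± 3.95 CPM, and its adaptor Tyrobp rose from 13.3 ± 4.90 to 29.0 ± 6.35 CPM. Clec7a, which encodes Dectin-1, is listed under 2 identifiers with log2 fold changes of 3.4 and 3.28, and its level was 0.787 ± 0.427 and 7.69 ± 1.54 CPM under the more abundant one. Downstream, the exchange factor Vav1 rose from 3.93 to 8.03 CPM, the phospholipase Plcg2 from 4.05 to 6.69 CPM and the lipid phosphatase Inpp5d from 14.9 to 22.4 CPM. Pik3cg, a PI3-kinase subunit, went from 3.26 to 5.88 CPM (adjusted p = 0.0164, edgeR) and the adaptor Card9 from 2.36 to 4.08 CPM (adjusted p = 0.0205). These last calls were lost when GFP 4, GFP-GR100 2 or GFP-GR100 3 was left out, with adjusted p from 0.0550 to 0.0753, and that of Card9 also without GFP 1 (0.0550). The kinase Syk did not pass, at 5.40 ± 0.892 and 7.16 ± 0.889 CPM (adjusted p = 0.222).

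Interferon-stimulated genes differed most, with 27 of 30 called higher, 0 lower and a median log2 fold change of 2.26. Their summed level was 152 to 248 CPM in GFP and 855 to 1069 CPM in GFP-GR100. Mx2, a restriction factor, rose from 1.29 ± 0.143 to 9.38 ± 1.14 CPM, Oas2, a sensor of double-stranded RNA, from 1.06 ± 0.312 to 10.1 ± 0.457 CPM, and Irf9, a subunit of the ISGF3 factor, from 11.7 ± 1.72 to 45.3 ± 5.54 CPM. Of the 7 Ms4a genes, Ms4a4c alone had a log2 fold change as large as the median of this list. The part of the interferon response in the Ms4a values was not tested.

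Few markers of other immune cells were called. None of 12 tested border macrophage markers was called, with a median log2 fold change of 0.02 and summed levels of 40.2 to 46.8 CPM in GFP and 41.8 to 57.6 CPM in GFP-GR100. The defining markers Mrc1 (4.27 ± 0.762 and 5.14 ± 0.609 CPM) and Cd163 (2.63 ± 0.618 and 2.74 ± 0.319 CPM) had adjusted p of 0.421 and 0.837 in edgeR. The endocytic adaptor Dab2, with the lowest p of that list, was at 8.34 ± 0.956 and 10.2 ± 2.24 CPM (adjusted p = 0.382). For monocytes and neutrophils, the fitted log2 fold changes of all 11 tested markers were positive (median 0.44), and 2 were called higher, the growth factor receptor Csf3r (6.48 ± 1.33 to 16.1 ± 3.03 CPM) and Plac8 (0.382 ± 0.131 to 1.17 ± 0.170 CPM). Their summed level was 41.8 to 44.8 CPM in GFP and 50.4 to 65.2 CPM in GFP-GR100, highest in GFP-GR100 4. Ly6c2 and Ccr2, which define inflammatory monocytes, did not pass, at 2.61 ± 0.886 and 2.76 ± 0.649 CPM and at 0.481 ± 0.134 and 0.626 ± 0.259 CPM. Of 18 T and natural killer cell markers 0 were called, with a median log2 fold change of 0.31, and Cd3e was at 0.168 ± 0.165 and 0.259 ± 0.161 CPM. The lowest p of that list was that of Cd4, at 13.5 ± 0.524 and 16.8 ± 2.06 CPM (adjusted p = 0.150). None of 4 tested B cell markers was called, with a median log2 fold change of 0.53, and the lowest p among them was that of Cd79b, at 0.352 ± 0.133 and 0.657 ± 0.207 CPM (adjusted p = 0.123). The only tested mast cell marker, the histidine decarboxylase gene Hdc, was at 2.01 ± 0.810 and 1.43 ± 0.882 CPM and was not called. None of the 10 neuron markers was called, with a median log2 fold change of -0.10. The lowest p among them was that of the transcription factor gene Neurod6, at 73.1 ± 9.11 and 52.7 ± 13.7 CPM (adjusted p = 0.291). The part of monocytes, neutrophils and lymphocytes in the Ms4a values was not tested.

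**Figure D3:**
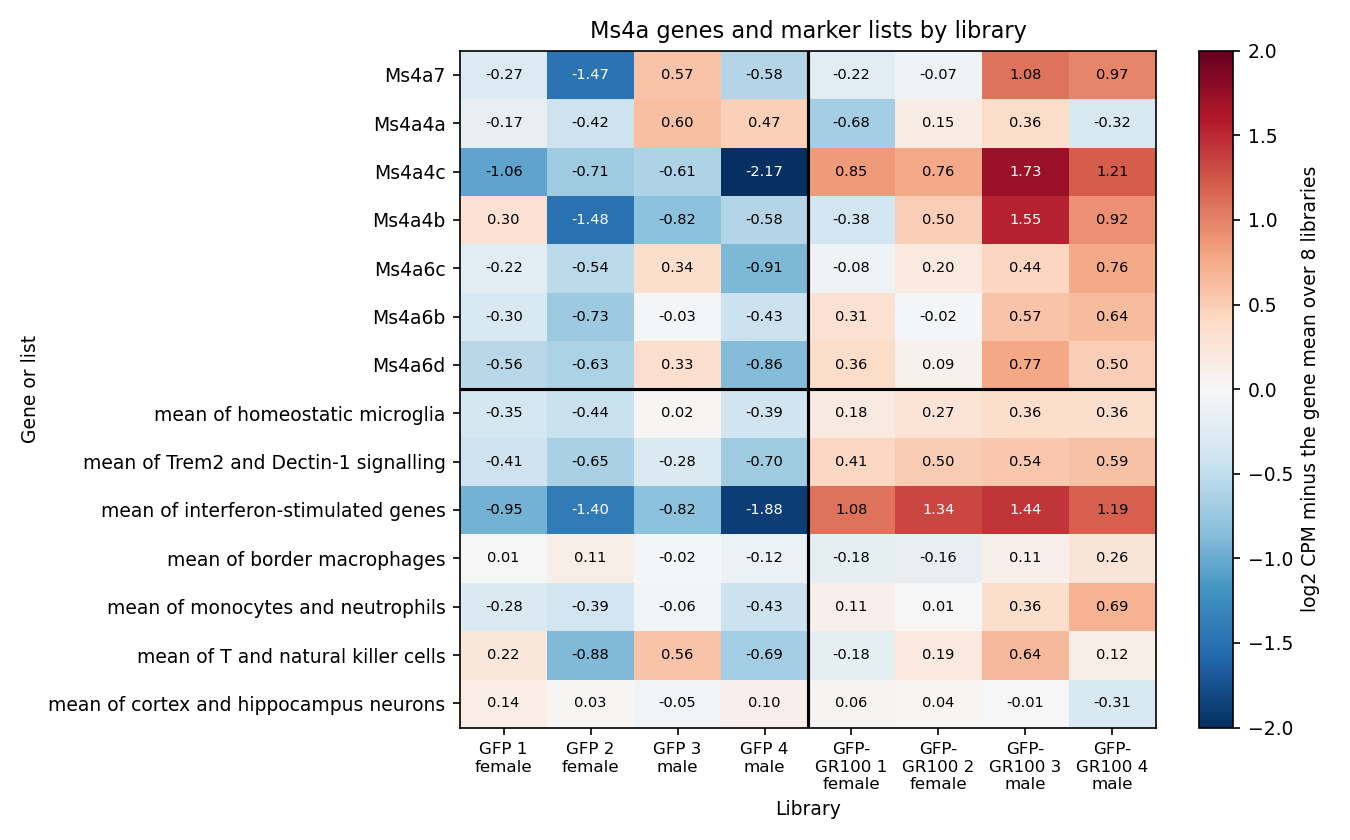
Log2 CPM of each Ms4a gene minus its own mean over the 8 libraries (upper rows), and the mean of the same quantity over the genes of 7 marker lists (lower rows), by library (columns). Ms4a4c is below its mean in all GFP libraries and above it in all GFP-GR100 libraries, as are the means of the interferon-stimulated genes, of Trem2 and Dectin-1 signalling and of monocytes and neutrophils, whereas Ms4a4a shows no such order.

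To ask which Ms4a genes differed by more than the mean of the microglial markers did, libraries were rescaled. The mean log2 CPM of the 25 markers was made equal in all 8. This scaling moves the median log2 fold change of all tested genes from -0.02 to -0.61. On it 69.7% of them were called lower and 1.5% higher, and an adjusted p under it is lenient. Of the 25 markers themselves, 7 were called higher and 7 lower on this scale. A call here is thus against the mean of the markers, not against each of them. Ms4a4c was again the only one of the 7 called higher, with a log2 fold change of 1.79 (SE 0.40, adjusted p = 0.000401, edgeR). Per 1000 CPM of microglial markers it stood at 0.218, 0.297, 0.225 and 0.0814 CPM in the GFP libraries and at 0.554, 0.488, 0.917 and 0.644 CPM in the GFP-GR100 libraries, so the groups stayed apart. Ms4a6b, in contrast, stood at 1.74, 1.34, 1.54 and 1.58 against 1.63, 1.21, 1.73 and 1.85, and its groups overlapped throughout. The log2 fold changes of Ms4a6b (0.18, SE 0.21), Ms4a6c (0.06, SE 0.24), Ms4a6d (0.27, SE 0.22) and Ms4a7 (0.27, SE 0.31) were near 0 on this scale, with adjusted p of 0.278 to 0.827. Ms4a4b was at 0.79 (SE 0.49, adjusted p = 0.150) and Ms4a4a at -0.81 (SE 0.43, adjusted p = 0.0928). Without GFP 1, Ms4a4b was called higher as well.

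**Figure D4:**
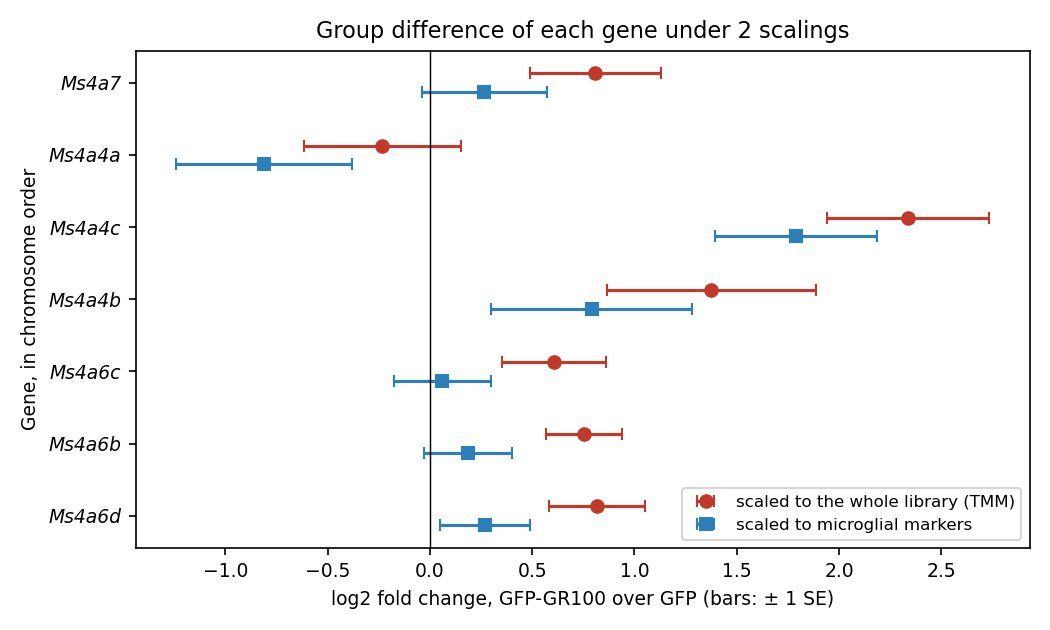
Log2 fold change of each gene, GFP-GR100 over GFP, with bars of 1 SE (horizontal axis), for libraries scaled to their whole content (red circles) and to 25 microglial markers (blue squares). Every gene is lower on the microglial scale, where Ms4a4c is at 1.79 and Ms4a6c, Ms4a6b, Ms4a6d and Ms4a7 lie between 0.06 and 0.27.

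The profiles of the 3 Ms4a6 genes over the 8 libraries were the most alike among the 7. The root mean square difference of their log2 CPM, each centred on its mean, was 0.24 for Ms4a6b and Ms4a6d, 0.25 for Ms4a6c and Ms4a6d and 0.28 for Ms4a6b and Ms4a6c. Ms4a4c and Ms4a4b, whose upstream sequences are alike, differed by 0.92, and the most unlike pair was Ms4a4a and Ms4a4c, at 1.43. These are descriptions over 8 libraries that share depth and group, and low counts enlarge them. By the same measure, the closest genes outside the family were sought among 16458 candidates with a mean of at least 1 CPM. For Ms4a4c they were AI607873 (0.28), Tlr2, a receptor for bacterial lipopeptides (0.32), and Gm11626 (0.32), all of them called higher, against a median of 1.28 over the candidates. Ms4a4b was closest to the cytokine receptor subunit Csf2rb2 (0.47), the protease Casp1 (0.48) and the nuclease Isg20 (0.49).

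For Ms4a6d the closest were Lst1 (0.12), the chemokine Ccl9 (0.13) and Samsn1 (0.14), and for Ms4a6b they were Gm28417 (0.13), Gm20489 (0.13) and Tmem173 (0.15), which encodes the DNA-sensing adaptor STING. Ms4a6c was closest to BE692007 (0.12), which overlaps it on the other strand, then to Gpr157 (0.17) and the inhibitory receptor Pirb (0.17). Ms4a7 was closest to AW112010 (0.17), which starts at -273 kb from the start of Ms4a7, with other genes between them. Next were the apolipoprotein gene Apoc1 (0.26) and the phosphatase gene Ptpn18 (0.34). Ms4a4a was closest to Cxx1a (0.14), Gm11512 (0.19) and Gm27202 (0.20), none of which was called.

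**Figure D5:**
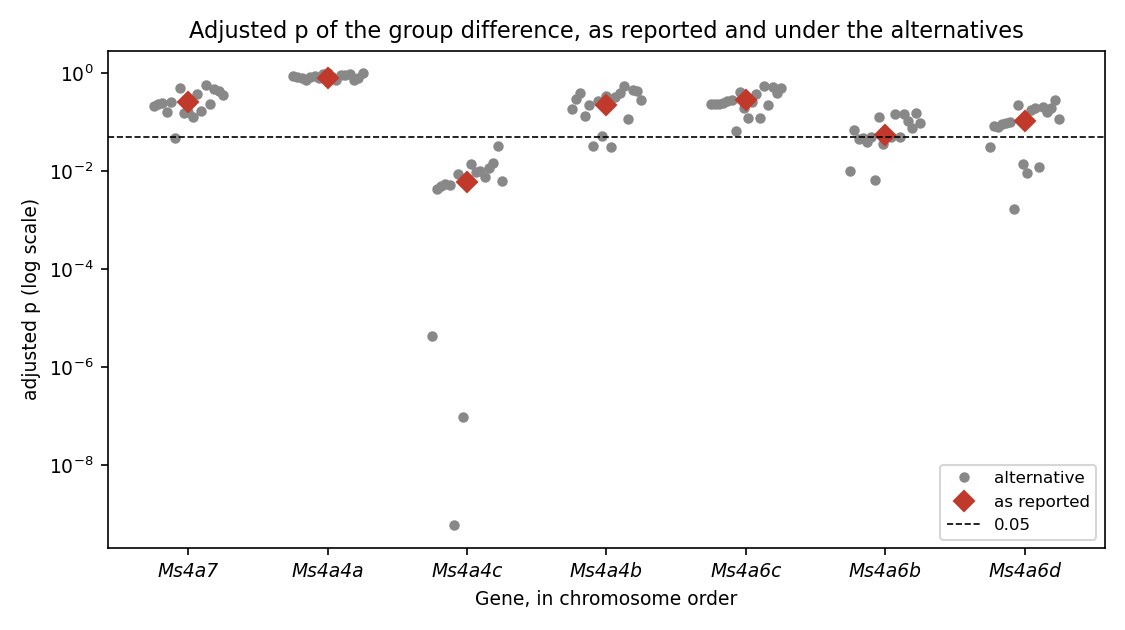
Adjusted p of the group difference (vertical axis, log scale) for each of the 7 genes (horizontal axis), as reported (red diamonds) and under each alternative (grey points), with a dashed line at 0.05. Ms4a4c is below the line throughout, and Ms4a4a and Ms4a6c are above it throughout. Ms4a6b, Ms4a6d, Ms4a4b and Ms4a7 have points on both sides of it.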

How the data were processed

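RNA sequencing libraries were made from total RNA with a stranded paired-end kit, per the labels' protocols. The authors deposited whole-number counts per gene and RPKM values for 8 libraries, with gene lengths and positions on mm10. The submitters' processing notes name CASAVA, TopHat2 version 2.1.0, DESeq2 and R version 3.4.1. No source used here names the gene counter or annotation release, or says whether strand was used. Library totals computed from the deposited RPKM, counts and lengths were 1.00023 to 1.00024 times the summed counts, so RPKM was scaled to those sums. All 37 mitochondrial rows held 0 counts.

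The 7 members and all gene lists were chosen with earlier results of these data known. The analysis used R version 4.3.3 with edgeR version 4.0.16 and, for alternatives, limma version 3.58.1. The filter was filterByExpr by group (minimum count 10, minimum total 15), followed by TMM and edgeR's robust quasi-likelihood test on sex plus group. Benjamini-Hochberg adjustment ran over all 20987 genes tested, with a threshold of 0.05. The sex difference was the interaction term of a sex-by-group model. Genes of each list were named by rule: called genes of Trem2 and Dectin-1 signalling, the 3 called genes of smallest p of each other list, or the 1 of smallest p where none was called. All members, the tested family genes and, for each member, the 3 genes of closest profile were named too. Further names (P2ry12, Syk, Mrc1, Cd163, Ly6c2, Ccr2, Cd3e, the untested family genes, BE692007, Gm8369 and AW112010) were added for context with their values known. Closest profiles used log2 CPM with a prior count of 2.

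On simulated counts for GFP-GR100 against GFP with 20987 genes, the test called 67% of 100 genes with a true log2 change of 1 and 95% of 100 with one of 2, and 21 of 20787 unchanged genes. The changed genes were drawn at random from all tested genes, without regard to their level. The shares called therefore do not give the detection rate for genes with counts as low as those of the Ms4a genes. Libraries of a group differed by a chi-square of at least 16.8 per degree of freedom, which includes differences between animals. Alternatives changed the scaling (median-of-ratios), the filter (none, or at least 1 CPM on average), the test (limma-voom, DESeq2 version 1.42.0, or limma-trend on log2 RPKM with 0.1 or 1 added) or the model (sex left out), or dropped each library in turn. Leaving out GFP 3 and GFP-GR100 4 together, scaling to 12 border macrophage markers, and the alternatives for the lists were chosen after seeing the data. Promoter windows came from RefSeq (GRCm38.p6) and transcript windows and strands from GENCODE M21, and windows were aligned with Biopython version 1.88.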

Additional observations from a re-analysis of the deposited data

Results flagged for a closer look

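Among the 14 sets of 4 libraries that hold one Ms4a gene in one group, no library stood apart from the other 3 by Dixon's criterion. The nearest was Ms4a6d in GFP 3, with a gap of 0.819 of the range against a critical value of 0.829. Over all 88 sets looked at, 8 had a library that stood apart, and chance marks about 1 set in 20. GFP 3 was the high library for Tmem176b (41.1 CPM against 23.0 to 25.7), for Trem2 (18.5 CPM against 12.7 to 13.4), for Csf3r (8.47 CPM against 5.67 to 5.89) and for the summed level of homeostatic microglia markers (1038.1 CPM against 726.5 to 762.4). GFP 4 was low for Oas2 (0.596 CPM against 1.19 to 1.26). In GFP-GR100, library 4 was high for Tmem176b (36.6 CPM against 32.8 to 33.3) and low for the summed neuron markers (4697 CPM against 5554 to 5643), and library 2 was high for Inpp5d (25.1 CPM against 21.2 to 21.8).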

How the results depend on the processing

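The number of Ms4a genes called higher was 1 as reported. It was 2 with median-of-ratios size factors, with limma-voom and on log2(RPKM + 1) (Ms4a4c and Ms4a6b in each), 3 with DESeq2 and with scaling to border macrophage markers (Ms4a4c, Ms4a6b and Ms4a6d) and 5 with no filter (all but Ms4a4a and Ms4a6c). It was 1 to 3 when each library was left out, with 3 without GFP 1 (Ms4a4c, Ms4a6b and Ms4a4b) and without GFP 3 (Ms4a4c, Ms4a6b and Ms4a6d), and 2 without GFP 3 and GFP-GR100 4 (Ms4a4c and Ms4a6d). Among genes averaging 1 CPM or more the count was also 1, but it was Ms4a6b (adjusted p = 0.0398, edgeR), because Ms4a4c was not tested there. Scaled to microglial markers, the count went from 1 to 0 among genes averaging 1 CPM or more and to 2 without GFP 1, with a range of 1 to 2 when each library was left out.

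The count of other family genes called, 0 as reported, was 1 with no filter (Ms4a15, lower), 1 without GFP 3 and 1 without GFP 3 and GFP-GR100 4, so 0 to 1 when each library was left out. With no filter, 1 border macrophage marker, 1 T or natural killer cell marker and 1 neuron marker were called. Among genes averaging 1 CPM or more, 1 monocyte or neutrophil marker was called. On log2(RPKM + 0.1), 1 B cell marker was called, and without GFP 3 and GFP-GR100 4, 1 T cell marker (Cd4). Over all genes, 460 were called higher as reported, 1168 with no filter and 724 with DESeq2. Of genes called lower, 68 as reported, there were 361 with no filter, 36 among genes averaging 1 CPM or more, 200 with DESeq2, 32 on log2(RPKM + 0.1), 35 with no sex covariate, 113 without GFP 3 and GFP-GR100 4, and 19 to 75 when each library was left out.

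Directions turned for the following values. The log2 fold change of Ms4a4a was 0.040 without GFP 3 and GFP-GR100 4. That of Gm11512, -0.03 as reported, was 0.0095 among genes averaging 1 CPM or more, 0.0084 on log2(RPKM + 0.1), 0.19 without GFP 3 and GFP-GR100 4, and 0.015 to 0.12 when library 1 or 3 of GFP or 1 or 4 of GFP-GR100 was dropped. With each library left out, the male minus female difference ran from -0.47 to 0.98 for Ms4a7 (below 0 without GFP 1 or GFP 4), from -0.20 to 1.07 for Ms4a6c (below 0 without GFP 4) and from -0.071 to 0.37 for Ms4a6b (below 0 without GFP 1, GFP 4 or GFP-GR100 2). For Ms4a6d it ran from -0.56 to 0.65 (above 0 without GFP 3 or without library 1 or 4 of GFP-GR100). On the microglial scale Ms4a6c was at -0.13 without GFP 4 and -0.057 without GFP-GR100 4. The cause of these shifts was not tested. No paired analysis was possible because the labels give no replicate numbers, and those used here follow accession order. Depth limits Ms4a4a, Ms4a4b and Ms4a4c most, with 5 to 100 counts a library.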
